A study of Mus musculus with 6 samples.

Results

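The genes of the centromere, the kinetochore and the centrosome measured here were 65 of the 18193 genes that had a probe set of their own on the Affymetrix mouse arrays. They were taken by symbol alone: every gene called Cenp with 1 letter or Cep with a number, together with Ska1, Ska2, Ska3, Spc24, Spc25, Ndc80, Nuf2, Mis12, Dsn1, Nsl1, Pmf1 and Zwint. Each gene was read through 1 probe set, the brightest by its mean on the 6 arrays of those annotated to that gene alone. For 4 of the 65 genes this was a probe set of a type that can cross-hybridise. By known role, 2 of the 65 encode CENP-A and CENP-B, 14 encode proteins of the inner kinetochore, 9 encode the KMN network with its partner Zwint, 5 act where the kinetochore meets microtubules, 34 belong to centrioles and centrosomes, and Cenpv was kept apart. No difference between the cell groups entered this rule.

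RNA came from 3 cell populations of the back skin of untreated female CD-1 mice, sorted by flow cytometry, with 2 arrays each. Matrix cells of the transient-amplifying kind (HF-TAC), the progenitors at the base of the growing follicle, were sorted by GFP, integrin α6 and ephrinB1 at postnatal day 28 to 30. Stem cells of the hair follicle in the activated state (aHF-SC) were sorted by GFP, integrin α6 and CD34 at the same age. Those in the quiescent state (qHF-SC) were sorted by integrin α6 and CD34 at postnatal day 52 to 60. The source of the GFP, the gates for each marker and any pooling of animals are not given in the labels. Age and sorting markers changed together with cell state, so their effects cannot be told apart. The labels also leave unsaid whether the 2 replicates of a group were different animals; the p-values cover the spread between arrays, which could be technical only.

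In every cell division each chromosome is held at its centromere, a region marked by nucleosomes that carry the histone variant CENP-A. The inner kinetochore is built on this chromatin throughout the cell cycle, and in mitosis it recruits the KMN network, whose NDC80 complex grips the microtubules of the spindle. The centrosome, a pair of centrioles in a cloud of protein, organises those microtubules, and in resting cells its older centriole anchors the cilium. In the hair follicle the matrix cells divide rapidly while the hair grows, and the stem cells of the bulge divide only briefly and then rest.

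Many genes of mitosis carry a CHR element (TTTGAA, the cell cycle genes homology region) near the start of transcription, often downstream of CCAAT boxes, and genes of S phase often carry E2F sites. The 300 bases around the start site (250 before it and 50 after, from RefSeq on GRCm38.p6) are given for 5 genes that the results turn on. Cenpa, Spc25, Ndc80 and Cep55 rose strongly in HF-TAC and carry TTTGAA, and Cep20, a centrosome gene with overlapping groups, does not. Capitals mark TTTGAA and CCAAT on either strand, so that TTCAAA and ATTGG are the same motifs read from the other strand.
Cenpa (chr5:30666636-30666935, plus strand): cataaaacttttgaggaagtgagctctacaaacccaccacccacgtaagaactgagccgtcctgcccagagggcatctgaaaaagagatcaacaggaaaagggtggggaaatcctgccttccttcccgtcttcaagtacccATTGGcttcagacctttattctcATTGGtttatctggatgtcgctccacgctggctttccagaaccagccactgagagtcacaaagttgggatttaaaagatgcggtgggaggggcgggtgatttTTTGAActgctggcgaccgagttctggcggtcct
Spc25 (chr2:69206164-69206463, minus strand): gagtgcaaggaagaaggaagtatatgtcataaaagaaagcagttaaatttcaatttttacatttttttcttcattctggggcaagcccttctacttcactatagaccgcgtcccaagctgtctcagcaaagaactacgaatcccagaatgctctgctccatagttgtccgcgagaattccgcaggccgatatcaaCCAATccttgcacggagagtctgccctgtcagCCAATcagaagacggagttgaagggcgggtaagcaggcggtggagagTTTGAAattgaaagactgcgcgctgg
Ndc80 (chr17:71526808-71527107, minus strand): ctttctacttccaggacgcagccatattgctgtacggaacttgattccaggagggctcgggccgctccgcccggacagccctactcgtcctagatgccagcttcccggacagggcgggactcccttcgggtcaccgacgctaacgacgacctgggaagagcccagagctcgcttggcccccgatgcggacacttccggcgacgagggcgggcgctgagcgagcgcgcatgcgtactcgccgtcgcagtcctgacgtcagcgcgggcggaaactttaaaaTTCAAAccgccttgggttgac
Cep55 (chr19:38054734-38055033, plus strand, the first of its 2 windows): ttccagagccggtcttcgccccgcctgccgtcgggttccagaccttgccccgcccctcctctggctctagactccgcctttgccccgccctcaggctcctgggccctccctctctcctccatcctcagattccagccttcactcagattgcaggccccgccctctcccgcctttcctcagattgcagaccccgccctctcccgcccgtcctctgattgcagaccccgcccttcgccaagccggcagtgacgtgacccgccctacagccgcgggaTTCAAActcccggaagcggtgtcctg
Cep20 (chr16:14317283-14317582, minus strand): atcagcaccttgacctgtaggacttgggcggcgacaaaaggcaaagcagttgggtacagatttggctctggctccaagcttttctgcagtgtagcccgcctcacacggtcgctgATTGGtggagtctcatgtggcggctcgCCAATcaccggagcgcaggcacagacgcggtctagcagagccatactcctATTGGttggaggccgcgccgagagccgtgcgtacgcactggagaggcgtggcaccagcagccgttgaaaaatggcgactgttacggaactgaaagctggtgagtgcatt

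In these windows the CHR match of Cenpa lay 17 bases after the start site, that of Spc25 25 bases after it, that of Ndc80 30 bases after it and that of Cep55 25 bases after it. Spc25 and Cenpa also carried 2 CCAAT boxes each before the start site, whereas the windows of Ndc80 and Cep55 held none. Cep20 carried 3 CCAAT boxes. The RefSeq table held 67 windows for 58 of the 65 genes. TTTGAA on either strand was found in 9 of 30 windows of centromere and kinetochore genes (30%) and in 9 of 36 windows of centriole and centrosome genes (25%), against 17.9% of all 32851 windows in the table. By outcome in HF-TAC against qHF-SC, it was in 12 of 35 windows of genes that rose (34.3%) and in 6 of 32 windows of the others (18.8%), so the printed genes are not typical. A window of Cep170, which fell, held it, and those of Cenph, Cenpi and Cenpk, which rose, did not. CCAAT was found in 21 of the 30 (70%) and 16 of the 36 (44.4%), against 37.4% of all. An E2F-type sequence, taken as TTGGCGC with the further spelling TTCCCGC, the further spelling TTCGCGC and the last spelling TTGCCGC on either strand, was found in 10 of the 30 (33.3%) and 13 of the 36 (36.1%), against 9.57% of all. Split by the same outcome, CCAAT was in 21 of 35 windows of genes that rose (60%) and in 16 of 32 of the others (50%). The E2F-type sequence went the other way, with 9 of 35 (25.7%) and 14 of 32 (43.8%). A CHR, or its variant TTCGAA, in the same window as CCAAT was found in 8 of the 30 (26.7%) and 4 of the 36 (11.1%), against 7.52% of all. TTGGCGC shares letters with ATTGG, so that a CCAAT and an E2F match can overlap, windows of 1 gene can overlap too, and a match is a string of letters, not a shown binding site.

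The labels were set against marker transcripts. Of the 3 sorting markers, Cd34 and Itga6 fell and Efnb1, which encodes ephrinB1, rose in HF-TAC against qHF-SC, whereas against aHF-SC Cd34 and Itga6 fell and Efnb1 did not pass (0.28 ± 0.20 SE on the log2 scale, limma adjusted p = 0.448). Between the stem cell groups, both sorted by CD34, Cd34 fell in aHF-SC (-1.49 ± 0.28 SE on the log2 scale, limma adjusted p = 0.0259). Of 7 stem cell markers, 6 fell in HF-TAC against qHF-SC and all 7 fell against aHF-SC, and of 7 matrix markers 6 and 5 rose in the same comparisons. Of 9 markers of dividing cells, all 9 rose in HF-TAC against either stem cell group and 7 rose in aHF-SC against qHF-SC. Of 7 immune markers none passed the test in any comparison, and of 6 endothelial markers 1 passed in each (Cdh5 and Tek). Of 7 fibroblast markers 1 rose (Dcn), 1 fell (Col1a2) and 5 did not pass in HF-TAC against qHF-SC, with a median of 0.907-fold. Dcn was at an intensity of 3646 and 5927 in HF-TAC, 53.2 and 86.8 in aHF-SC and 28.8 and 16.6 in qHF-SC. Of 7 melanocyte markers, 3 rose and Mitf fell in HF-TAC against qHF-SC. A list of 10 genes induced by tissue dissociation had a median intensity of 3985 and 3017 in HF-TAC, 3297 and 7561 in aHF-SC and 1214 and 1042 in qHF-SC, so both younger groups lay above qHF-SC. Of all genes, 26.3% passed in HF-TAC against qHF-SC, 17.5% in HF-TAC against aHF-SC and 6.28% in aHF-SC against qHF-SC. The part of these markers in the results below was not tested.

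Most kinetochore transcripts were more abundant in the matrix cells than in either stem cell group. Of the 30 centromere and kinetochore genes, 27 rose in HF-TAC against qHF-SC, Cenpb fell, and Mis12 and Nsl1 did not pass. Their median difference was 6.40-fold. Over all 65 genes 35 rose, 3 fell and 27 did not pass, with a median of 1.87-fold. Of all 18193 genes, 26.3% passed in this comparison, 13.4% rising and 12.9% falling, and the median of all genes was -0.0089 on the log2 scale. In HF-TAC against aHF-SC, 26 of the 30 rose with a median of 3.73-fold, and over all 65 genes 34 rose and 2 fell, where 17.5% of all genes passed, 8.97% rising and 8.57% falling. All calls are limma's at a Benjamini-Hochberg adjusted p below 0.05 over all 18193 genes. In sorted cells measured in bulk, more dividing cells and more RNA per dividing cell cannot be told apart.

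**Figure D1:**
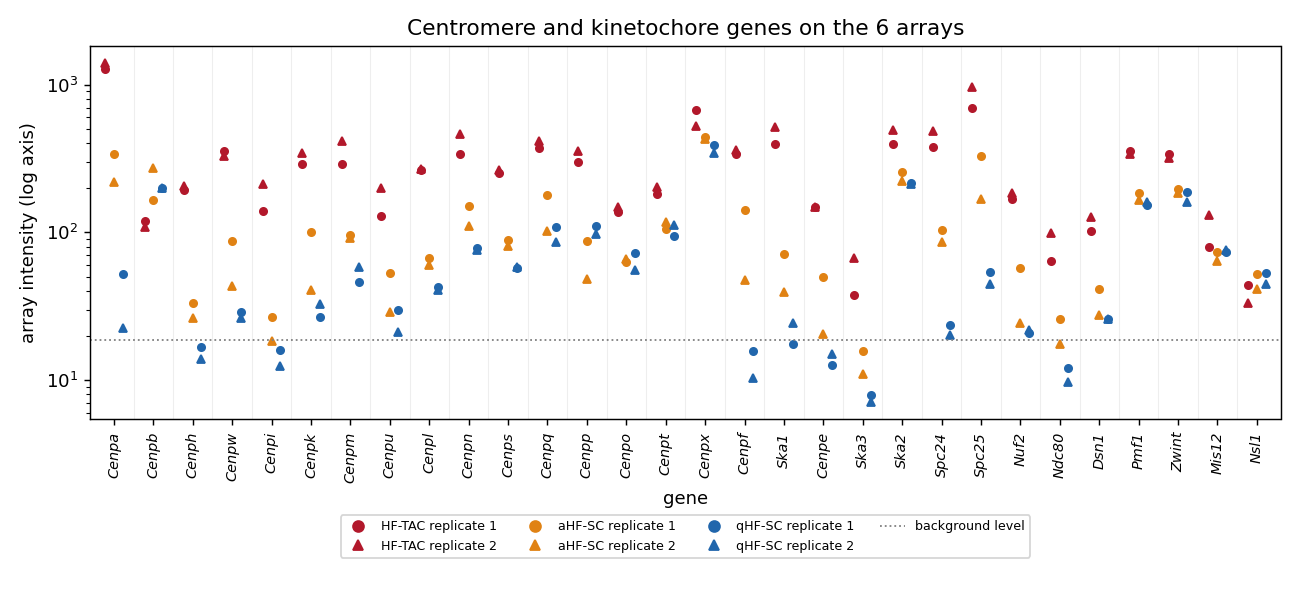
Array intensity (log axis) of the 30 centromere and kinetochore genes, 1 column per gene; red, orange and blue are HF-TAC, aHF-SC and qHF-SC, circles and triangles are replicates 1 and 2, and the dotted line is the background level of 18.6. HF-TAC lies above both stem cell groups for 28 of the 30 genes, the exceptions being Cenpb and Nsl1.

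CENP-A, the histone variant that marks the centromere, had one of the largest differences. Cenpa had an intensity of 1277 and 1405 in HF-TAC, 340 and 219 in aHF-SC, and 52.04 and 22.47 in qHF-SC. The 3 groups did not overlap, and as a ratio the qHF-SC arrays differed from each other by more than the arrays of the other groups. Cenpa was 39.2-fold higher in HF-TAC than in qHF-SC (5.29 ± 0.39 SE on the log2 scale, limma adjusted p = 0.000142), 4.90-fold higher in HF-TAC than in aHF-SC (adjusted p = 0.00709) and 7.99-fold higher in aHF-SC than in qHF-SC (adjusted p = 0.00962). With aHF-SC replicate 2 left out the call against aHF-SC ended (adjusted p = 0.0521), and without qHF-SC replicate 2 the log2 difference of HF-TAC against qHF-SC was 4.69. The other 2 Cenpa probe sets were dim, and the mean over all 3 gave 2.23 on the log2 scale in place of 5.29.

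CENP-B, which binds a short motif in centromeric satellite DNA, went the other way. Cenpb had 120 and 108 in HF-TAC, 165 and 273 in aHF-SC and 199 and 200 in qHF-SC. Both HF-TAC arrays were the lowest of the 6. Its log2 difference was -0.81 ± 0.24 SE against qHF-SC (limma adjusted p = 0.0437) and -0.90 ± 0.24 SE against aHF-SC (adjusted p = 0.0415). These calls lay close to the threshold, and leaving out any 1 HF-TAC or qHF-SC array or aHF-SC replicate 2 ended at least 1 of them (adjusted p between 0.0738 and 0.159).

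All 14 measured genes of the inner kinetochore rose in HF-TAC against qHF-SC, with a median of 5.72-fold, and 13 rose against aHF-SC, with a median of 3.93-fold. In no gene of this group did an HF-TAC array overlap a stem cell array; of all genes, 30% lay higher without overlap and 31.2% lower in HF-TAC against qHF-SC, and 26.4% higher and 27.9% lower against aHF-SC. Cenph, a member of the CENP-H/I/K group that links CENP-A chromatin to the outer kinetochore, had 195 and 205 in HF-TAC, 33.1 and 26.4 in aHF-SC and 16.7 and 13.8 in qHF-SC. The groups were apart, with replicates close together and qHF-SC at background, where the size of a fold is uncertain. Cenph was 13.2-fold higher in HF-TAC than in qHF-SC (3.72 ± 0.18 SE on the log2 scale, limma adjusted p = 4.22e-05) and 6.76-fold higher than in aHF-SC (adjusted p = 0.000263).

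Its partners Cenpi and Cenpk behaved likewise against qHF-SC. Cenpi had 140 and 212 in HF-TAC, 26.6 and 18.3 in aHF-SC and 15.9 and 12.4 in qHF-SC. HF-TAC stood clear of both stem cell groups, which lay next to each other and near the background level. Cenpi was 7.80-fold higher in HF-TAC than in aHF-SC (2.96 ± 0.27 SE on the log2 scale, limma adjusted p = 0.000793). Cenpk had 289 and 344 in HF-TAC, 100 and 40.5 in aHF-SC and 26.8 and 32.9 in qHF-SC. Here aHF-SC replicate 1 was more than 2 times replicate 2, and the log2 difference of HF-TAC against aHF-SC of 2.31 was 1.65 without replicate 2 and 2.96 without replicate 1.

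CENP-W forms a histone-like complex with CENP-T. Cenpw had 355 and 330 in HF-TAC, 87.5 and 43.6 in aHF-SC and 28.7 and 26.3 in qHF-SC, and the groups did not overlap. It was 12.5-fold higher in HF-TAC than in qHF-SC (limma adjusted p = 0.000246). Its partner Cenpt differed much less, with 182 and 202 in HF-TAC, 106 and 118 in aHF-SC and 94.9 and 112 in qHF-SC. Both differences passed, at 1.86-fold against qHF-SC (limma adjusted p = 0.00629) and 1.72-fold against aHF-SC (adjusted p = 0.017), and the call against aHF-SC ended without either aHF-SC array or HF-TAC replicate 2 (0.0857, 0.0558 and 0.0778). Cenpx, whose product joins CENP-S in a further histone-fold pair, had 674 and 521 in HF-TAC, 440 and 432 in aHF-SC and 391 and 342 in qHF-SC. It was 1.62-fold higher in HF-TAC than in qHF-SC (limma adjusted p = 0.0251; 0.144 without qHF-SC replicate 2) and did not pass against aHF-SC (adjusted p = 0.147).

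Cenpp, of the CENP-O/P/Q/U group, had an order of its own. It had 301 and 354 in HF-TAC, 88.0 and 48.7 in aHF-SC and 111 and 97.0 in qHF-SC. Both aHF-SC arrays were below both qHF-SC arrays, a difference that did not pass (-0.67 on the log2 scale, limma adjusted p = 0.235). HF-TAC was 4.99-fold above aHF-SC (adjusted p = 0.00196) and 3.15-fold above qHF-SC (adjusted p = 0.00442). The remaining genes of the inner kinetochore, Cenpl, Cenpm, Cenpn, Cenpo, Cenpq, Cenps and Cenpu, rose between 2.26-fold (Cenpo) and 6.71-fold (Cenpm) in HF-TAC against qHF-SC. The Cenpo calls rest on a probe set that can cross-hybridise. Without such probe sets they ended (limma adjusted p = 0.633 against qHF-SC and 0.922 against aHF-SC). Cenpo was then read through a dim probe set, at 22.6 to 25.8 on all arrays. Another one, not of the cross-hybridising type, had 31.4 and 47.7 in HF-TAC, 20.9 and 21.8 in aHF-SC and 10.9 and 14.7 in qHF-SC. The remaining Cenpo probe sets were dim, with log2 differences against qHF-SC between -0.30 and 0.11.

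The KMN network did not move as a block. The 4 subunits of the NDC80 complex, which binds the microtubule, had larger differences than the 4 of the MIS12 complex, which ties it to the inner kinetochore; the gap between the complexes was not tested. Spc24 had 379 and 487 in HF-TAC, 104 and 85.9 in aHF-SC and 23.5 and 20.3 in qHF-SC. Its 3 groups were widely apart with close replicates, and qHF-SC lay close above the background level, where the size of a fold is uncertain. Spc24 was 19.7-fold higher in HF-TAC than in qHF-SC (4.30 ± 0.19 SE on the log2 scale, limma adjusted p = 3.98e-05) and 4.55-fold higher than in aHF-SC (adjusted p = 0.000672). Spc25, its partner in the globular end that faces the inner kinetochore, had 698 and 969 in HF-TAC, 331 and 168 in aHF-SC and 53.84 and 45.02 in qHF-SC. The groups were again apart, at 16.7-fold against qHF-SC (limma adjusted p = 0.000205) and 3.48-fold against aHF-SC (adjusted p = 0.00931). With its dim probe set averaged in, the log2 difference against qHF-SC was 2.09 in place of 4.06.

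Ndc80 and Nuf2, whose heads touch the microtubule, followed the same order. Ndc80 had 63.7 and 98.7 in HF-TAC, 25.9 and 17.5 in aHF-SC and 12.1 and 9.66 in qHF-SC, the last at background. It was 7.34-fold higher in HF-TAC than in qHF-SC (limma adjusted p = 0.000435). Nuf2 had 168 and 185 in HF-TAC, 57.7 and 24.3 in aHF-SC and 21.0 and 21.8 in qHF-SC, and was 8.25-fold higher in HF-TAC than in qHF-SC (limma adjusted p = 0.000972). HF-TAC was above every stem cell array for both genes. In qHF-SC Nuf2 lay close above the background level, so the size of its fold is uncertain too.

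Of the MIS12 complex, Dsn1 rose 4.41-fold (limma adjusted p = 0.000576) and Pmf1 rose 2.24-fold (adjusted p = 0.00133) in HF-TAC against qHF-SC. Mis12 itself had 79.7 and 132 in HF-TAC, 73.1 and 63.5 in aHF-SC and 73.1 and 75.9 in qHF-SC, and did not pass against either (adjusted p = 0.23 and 0.158). Without HF-TAC replicate 1 it passed both (adjusted p = 0.0247 and 0.0207). Nsl1 depended on the probe set. Its brightest one had 44.0 and 33.3 in HF-TAC, 52.2 and 41.3 in aHF-SC and 53.4 and 45.1 in qHF-SC and did not pass (adjusted p = 0.276 against qHF-SC). Its other one had 40.2 and 66.8 in HF-TAC, 15.2 and 13.6 in aHF-SC and 10.5 and 11.1 in qHF-SC, and with the mean of both Nsl1 passed against qHF-SC (adjusted p = 0.00365) and aHF-SC (adjusted p = 0.0118).

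Zwint, which holds the spindle checkpoint proteins to the network, had 337 and 319 in HF-TAC, 198 and 185 in aHF-SC and 189 and 160 in qHF-SC. Both HF-TAC arrays were above all others, at 1.89-fold against qHF-SC (limma adjusted p = 0.00497) and 1.71-fold against aHF-SC (adjusted p = 0.0148). With the mean of its 7 probe sets neither call remained (adjusted p = 0.0697 and 0.0765), and the call against aHF-SC also ended without either aHF-SC array or HF-TAC replicate 1 (adjusted p between 0.0509 and 0.0856).

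All 5 genes on the microtubule side rose in HF-TAC in both comparisons, with a median of 10.8-fold against qHF-SC, where 3 of the 5 were at background, and 4.32-fold against aHF-SC. The SKA complex keeps kinetochores on shortening microtubules. Ska1 had 399 and 520 in HF-TAC, 71.9 and 39.3 in aHF-SC and 17.6 and 24.2 in qHF-SC. HF-TAC stood far above both stem cell groups, by 22.1-fold over qHF-SC (4.46 ± 0.31 SE on the log2 scale, limma adjusted p = 0.000123) and 8.56-fold over aHF-SC (adjusted p = 0.00108). In qHF-SC Ska1 lay near the background level, where the size of a fold is uncertain. Ska2, of the same complex, had 398 and 492 in HF-TAC, 257 and 221 in aHF-SC and 216 and 213 in qHF-SC. HF-TAC was again apart, at 2.06-fold against qHF-SC (limma adjusted p = 0.00403) and 1.85-fold against aHF-SC (adjusted p = 0.012, which became 0.0791 when aHF-SC replicate 2 was left out and 0.0582 when HF-TAC replicate 2 was). The other Ska2 probe set lay between 79.1 and 116 on all arrays, with a log2 difference of 0.18 against either stem cell group. With both averaged, the call against qHF-SC remained and that against aHF-SC ended (limma adjusted p = 0.0818). Ska3, at background in both stem cell groups, was 6.77-fold higher in HF-TAC than in qHF-SC (limma adjusted p = 0.00068).

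CENP-E is a kinesin motor of the kinetochore, and CENP-F is a large protein that gathers at the nuclear envelope and then at kinetochores as mitosis nears. Cenpf had 341 and 364 in HF-TAC, 141 and 47.4 in aHF-SC and 15.8 and 10.4 in qHF-SC. The aHF-SC arrays were the farthest apart, replicate 1 being the higher, and qHF-SC was at background. Cenpf was 27.5-fold higher in HF-TAC than in qHF-SC (4.78 ± 0.46 SE on the log2 scale, limma adjusted p = 0.000444) and 4.32-fold higher than in aHF-SC (adjusted p = 0.0206, and 0.0601 or 0.0792 with 1 HF-TAC array left out). Cenpe had 149 and 150 in HF-TAC, 50.2 and 20.4 in aHF-SC and 12.6 and 15.1 in qHF-SC, and was 10.8-fold higher in HF-TAC than in qHF-SC (limma adjusted p = 0.000724), where it was at background and the size of the fold is uncertain. Cenpv, outside these groups, had 311 and 191 in HF-TAC, 283 and 353 in aHF-SC and 380 and 412 in qHF-SC. It passed no comparison (limma adjusted p between 0.0824 and 0.559), but fell against qHF-SC without HF-TAC replicate 1 (adjusted p = 0.0145). Averaged with dimmer probe sets of the same gene, the log2 differences of HF-TAC against qHF-SC came to 2.25 for Cenpf and 1.95 for Ska1, and both still passed.

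**Figure D2:**
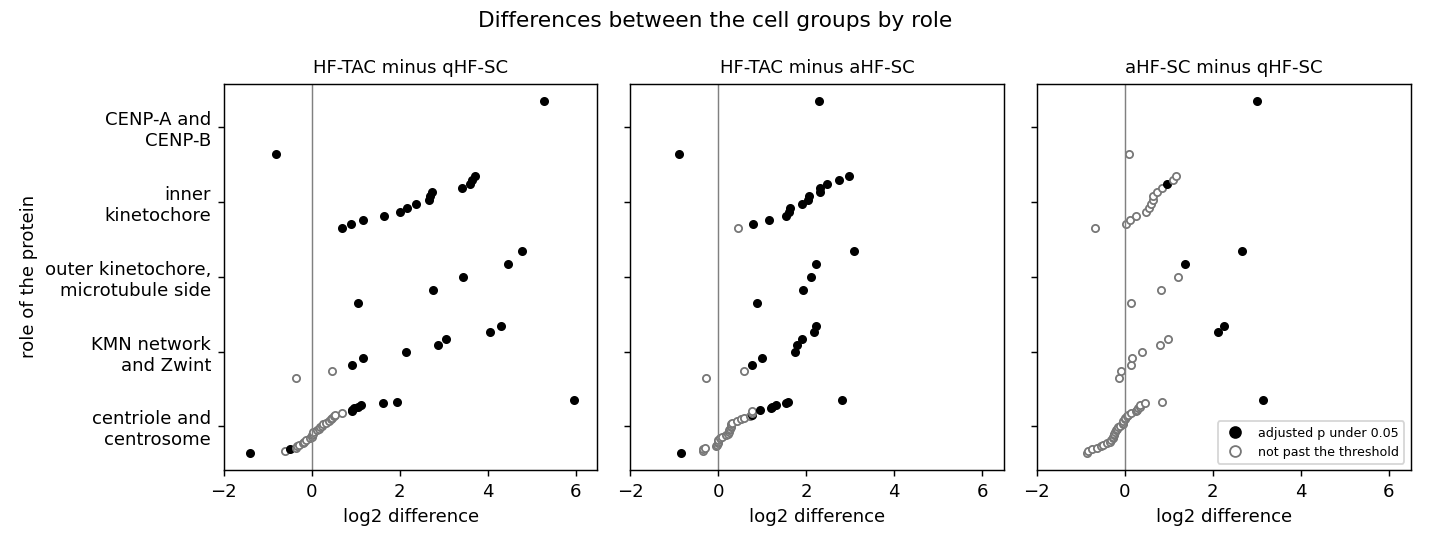
Log2 differences of the genes of 5 role groups in the 3 comparisons, 1 point per gene, filled where the limma adjusted p is below 0.05; Cenpv is not drawn. The inner kinetochore, the KMN network and the microtubule side lie mostly right of 0 in both HF-TAC panels, while most of the 34 centriole and centrosome genes lie near 0 in all 3.

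Most centriole and centrosome genes did not pass. Of 34, 8 rose, 2 fell and 24 did not pass in HF-TAC against qHF-SC, with a median of 1.16-fold, and 8 rose and 1 fell in HF-TAC against aHF-SC, with a median of 1.22-fold. Without Cep55 the count was 7 of 33 in each comparison, where 13.4% and 8.97% of all genes rose. Of these calls, that of Cep128 against aHF-SC ended without probe sets that can cross-hybridise (limma adjusted p = 0.0855). Cep55 carries the name of the centrosome but is known for cell separation, where it recruits the abscission machinery to the midbody.

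Cep55 had 531 and 755 in HF-TAC, 147 and 55.8 in aHF-SC and 9.67 and 10.7 in qHF-SC. The groups did not overlap, and qHF-SC was at background. The difference of 62.2-fold between HF-TAC and qHF-SC was the largest of all 65 genes (5.96 ± 0.42 SE on the log2 scale, limma adjusted p = 0.000124), and HF-TAC was 6.99-fold above aHF-SC (2.80 ± 0.42 SE on the log2 scale, adjusted p = 0.00427). The difference against aHF-SC was 2.10 on the log2 scale without aHF-SC replicate 2 and 3.50 without replicate 1. A dimmer Cep55 probe set lowered the difference against qHF-SC to 3.29 when both were averaged.

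**Figure D3:**
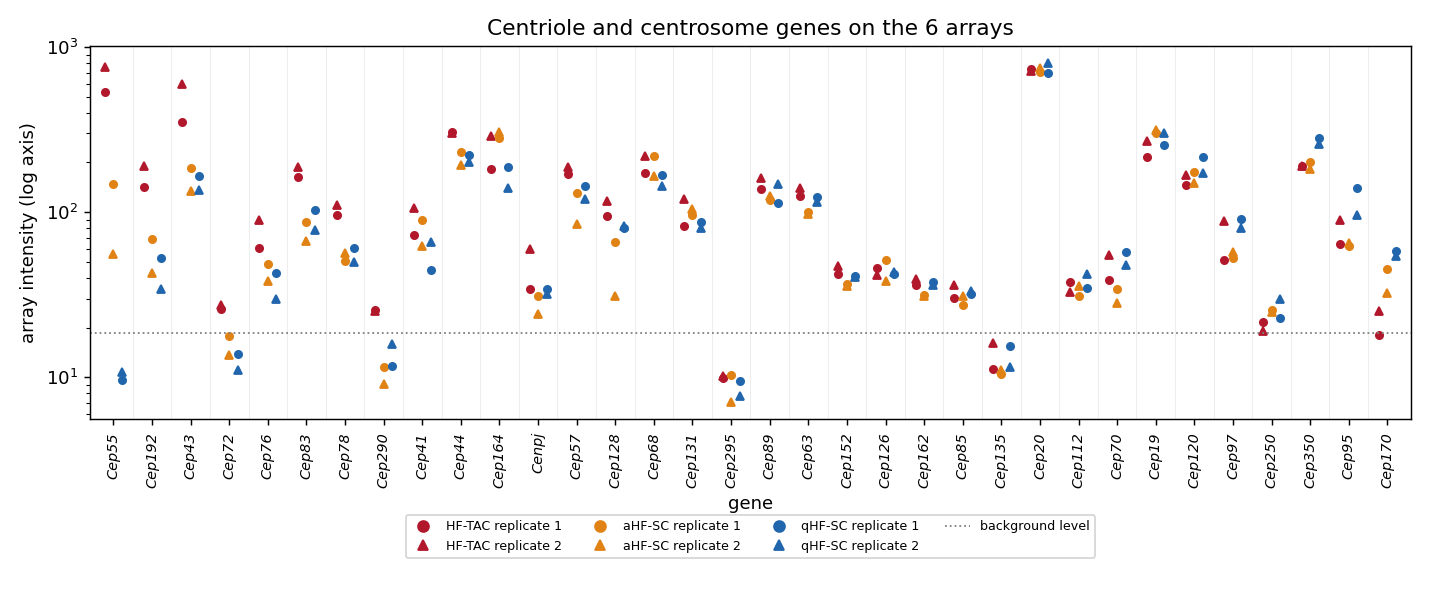
Array intensity (log axis) of the 34 centriole and centrosome genes, ordered by the difference between HF-TAC and qHF-SC; colours, symbols and the dotted background level of 18.6 as in the plot of kinetochore genes. For most genes the 3 colours lie close on this axis, and Cep55 at the left end is the gene with the widest spread. HF-TAC lies above qHF-SC without overlap for 17 of the 34 genes and below it for 5 (all genes, 30% and 31.2%). Against aHF-SC it lies above for 18 and below for 3 (all genes, 26.4% and 27.9%).

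The other 7 that rose against qHF-SC were Cep192, Cep43, Cep72, Cep76, Cep78, Cep83 and Cep290. Cep192, the scaffold that gathers material around the centriole before mitosis, had 141 and 191 in HF-TAC, 69.0 and 42.8 in aHF-SC and 52.8 and 34.3 in qHF-SC. It was 3.86-fold higher in HF-TAC than in qHF-SC (limma adjusted p = 0.00321). Cep43, which anchors microtubules at the centriole, had 353 and 593 in HF-TAC, 184 and 135 in aHF-SC and 165 and 136 in qHF-SC, and was 3.05-fold higher in HF-TAC than in qHF-SC (limma adjusted p = 0.00506). In both genes the stem cell groups overlapped and HF-TAC lay above them. The other 5 rose between 1.87-fold (Cep290) and 2.16-fold (Cep72), both of them at background in both stem cell groups, so that the sizes of these folds are uncertain. Cep290, of the base of the cilium, had 25.7 and 25.1 in HF-TAC, 11.5 and 9.07 in aHF-SC and 11.7 and 15.8 in qHF-SC. Of the 10 centriole and centrosome calls against qHF-SC, 5 held whichever array was left out, against 26 of 28 centromere and kinetochore calls. Besides Cep350, those that ended were Cep76, Cep78 and Cep83 without qHF-SC replicate 2 (limma adjusted p = 0.142, 0.0577 and 0.0881), Cep76 and Cep83 without HF-TAC replicate 2 (0.112 and 0.064), and Cep290 without qHF-SC replicate 1 or either HF-TAC array (between 0.0525 and 0.0925). Against aHF-SC, 2 of 9 centrosome calls held, those of Cep55 and Cep290, against 21 of 27. Cep43, Cep72, Cep83, Cep128 and Cep192 ended without aHF-SC replicate 2 (limma adjusted p between 0.0558 and 0.17), and Cep78 without aHF-SC replicate 1 (0.0534).

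Cep170, a protein of the mature mother centriole, fell in HF-TAC. It had 17.9 and 25.3 in HF-TAC, 45.2 and 32.5 in aHF-SC and 58.2 and 54.1 in qHF-SC. Its 3 groups were apart, with HF-TAC near the background level, where the size of a fold is uncertain. It was 2.63-fold lower in HF-TAC than in qHF-SC (-1.40 ± 0.23 SE on the log2 scale, limma adjusted p = 0.00416), and the call against aHF-SC lay at the threshold (-0.85 ± 0.23 SE, adjusted p = 0.0447; 0.203 without aHF-SC replicate 1). Cep350, which works with Cep43 in anchoring microtubules, had 190 and 191 in HF-TAC, 201 and 181 in aHF-SC and 280 and 258 in qHF-SC. Both younger groups lay below qHF-SC. Its call against qHF-SC (-0.49 ± 0.15 SE on the log2 scale, limma adjusted p = 0.0466) ended with any 1 array left out (adjusted p between 0.0636 and 0.203), and the mean of its probe sets gave -0.07.

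Cep20, of the centriolar satellites, was named for its intensity, the highest of the 34, which ranks probe sets and not transcripts. It had 731 and 714 in HF-TAC, 706 and 742 in aHF-SC and 694 and 801 in qHF-SC. The groups overlapped, with a log2 difference of -0.05 ± 0.15 SE between HF-TAC and qHF-SC (limma adjusted p = 0.881). Cenpj, which sets centriole length, and Cep152 and Cep63, which bring the kinase Plk4 to the centriole, were 3 of the members that did not pass against either stem cell group (limma adjusted p between 0.0977 and 0.61). Cenpj passed without HF-TAC replicate 1 (adjusted p = 0.0331 against qHF-SC and 0.0181 against aHF-SC). Cep135 and Cep295 were at background in every group, so nothing can be read from them.

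Between the stem cell groups the rise was narrower. Of the 65 genes, 7 rose in aHF-SC against qHF-SC, none fell and 58 did not pass, with a median of 1.10-fold; at an unadjusted p below 0.05 the count was 25 in either direction, where 20.3% of all genes lay below that p. Of all genes 6.28% passed in this comparison, 3.07% rising and 3.21% falling. The 7 were Cenpa, Cep55, Cenpf, Spc24, Spc25, Ska1 and Cenph, and each of them also rose in HF-TAC against aHF-SC. Of the 14 inner kinetochore genes only Cenph passed, of the 9 KMN genes only Spc24 and Spc25, and of the 33 centrosome genes without Cep55 none.

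From the intensities given above, aHF-SC was higher than qHF-SC by 8.90-fold for Cep55 (3.15 ± 0.42 SE on the log2 scale, limma adjusted p = 0.0105), by 6.37-fold for Cenpf (adjusted p = 0.0209) and by 4.80-fold for Spc25 (adjusted p = 0.0126). Spc24 was 4.32-fold higher (2.11 ± 0.19 SE on the log2 scale, adjusted p = 0.00319), Ska1 2.58-fold (adjusted p = 0.0483) and Cenph 1.95-fold (adjusted p = 0.0269). Of the 7 calls, that of Spc24 was the only one to hold whichever array was left out. When qHF-SC replicate 2 was left out, Cep55, Spc25, Cenpf, Cenph and Ska1 no longer passed (adjusted p = 0.068, 0.0957, 0.147, 0.179 and 0.141). When aHF-SC replicate 1 was left out, Cenpa no longer passed (adjusted p = 0.0552). With the other qHF-SC array left out Cenpf did not pass either (adjusted p = 0.0531), and Cenph and Ska1 were lost with most other arrays left out. Averaged over all probe sets, Cenpa differed by 1.06 on the log2 scale, and Cenpf (adjusted p = 0.0756) and Ska1 (adjusted p = 0.223) no longer passed.

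The aHF-SC replicates themselves differed in these genes. Replicate 1 was above replicate 2 for 27 of the 30 centromere and kinetochore genes, with a median ratio of 1.40, against 47.4% of all genes. In HF-TAC it was above for 6 of the 30 and in qHF-SC for 20, against 46.5% and 49.8% of all genes. The 30 genes had a median intensity of 88.4 and 62.0 in the aHF-SC arrays, and the 9 dividing cell markers of 439 and 225, so both lists were higher on the same array. The dissociation list was higher on the other one, at 3297 and 7561. Without replicate 2, Cenpe, Cenpk, Cenpw and Nuf2 also passed against qHF-SC (limma adjusted p = 0.0129, 0.0213, 0.0147 and 0.023), and 25 of the 36 HF-TAC against aHF-SC calls remained. The part of the array difference in these results was not tested.

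**Figure D4:**
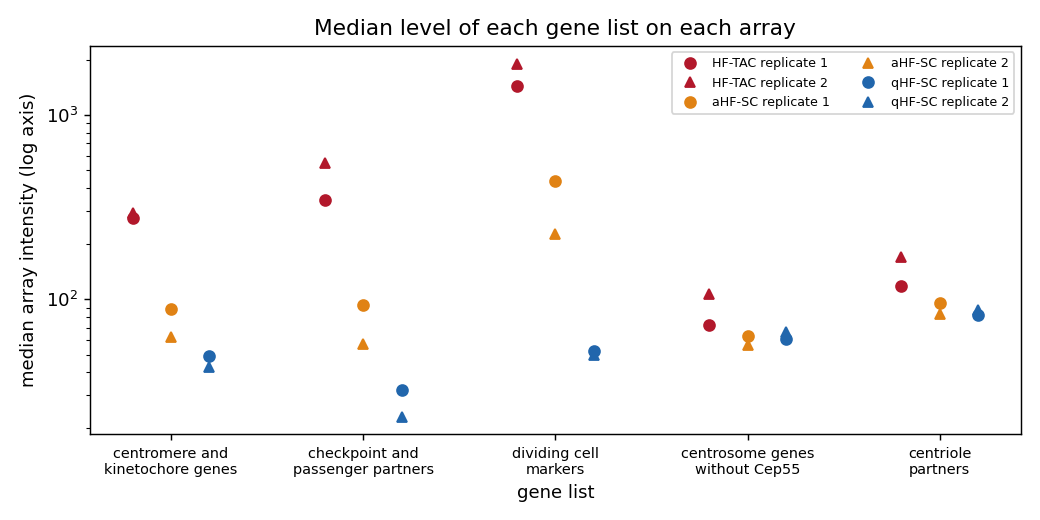
Median array intensity (log axis) of 5 gene lists on each of the 6 arrays, with red, orange and blue for HF-TAC, aHF-SC and qHF-SC and circles and triangles for replicates 1 and 2. Centromere and kinetochore genes, their checkpoint partners and dividing cell markers are ordered HF-TAC, aHF-SC, qHF-SC with no overlap. The medians of the centrosome genes without Cep55 are 72.5 and 106 in HF-TAC and lie between 56.5 and 66.0 in the stem cell arrays. Those of the centriole partners are 118 and 170 in HF-TAC and lie between 81.9 and 95.7 in the stem cell arrays. In both of these lists the 2 stem cell groups overlap.

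HF-TAC above aHF-SC above qHF-SC, with no overlap of any arrays, was the order of 21 of the 30 centromere and kinetochore genes and of 1 of the 34 centrosome genes, Cep55. Of all genes 8.38% had that order and 7.69% the opposite one, which 1 member had (Cep170). The log2 difference between aHF-SC and qHF-SC was also expressed as a share of that between HF-TAC and qHF-SC. This share was 56.7% for Cenpa, 55.9% for Cenpf, 55.7% for Spc25, 52.9% for Cep55 and 49.1% for Spc24. The groups were sorted separately and qHF-SC came from older mice, so it is not a part of a measured course. For Cenpf and Cep55 qHF-SC was at background, so these shares rest on a floor. The median share was 26.6% over the 27 centromere and kinetochore genes that rose, with Cenpp lowest at -40.2%. Over the 8 centrosome genes that rose it was 11.4%, and the difference between these sets was not tested. In 24 of the 27, HF-TAC minus aHF-SC, here called the second step, was larger than aHF-SC minus qHF-SC, the first step. The 27 were picked by the difference between HF-TAC and qHF-SC, which both steps make up. No such count or share was taken over all genes that rose, so these values cannot be read as particular to kinetochore genes.

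The difference between the steps, (HF-TAC minus aHF-SC) minus (aHF-SC minus qHF-SC), was put to the test in the same fit, a contrast chosen after the values were seen. It passed for 5 of the 65 genes, all with the larger second step. Of all genes 5.71% passed it, 2.17% with the larger second step and 3.54% with the smaller. They were Cenpp (2.98 ± 0.48 SE on the log2 scale, limma adjusted p = 0.017), Cenpi (2.32 ± 0.47 SE, adjusted p = 0.0366), Cenph (1.79 ± 0.31 SE, adjusted p = 0.0215), Cep290 (1.73 ± 0.35 SE, adjusted p = 0.037) and Cenpl (1.46 ± 0.25 SE, adjusted p = 0.0215). None of the 5 held without aHF-SC replicate 2 (adjusted p between 0.0759 and 0.241), the aHF-SC array with the lower kinetochore levels, and Cenpp was the only one to hold without each of the other 5 arrays. In qHF-SC Cenph, Cenpi and Cep290 were at background, and Cep290 was so in aHF-SC too. The size of their first step, and with it this contrast, is therefore uncertain, while Cenpp and Cenpl were above background in all groups. Cenpa, Cenpf, Spc25 and Cep55 did not pass this contrast.

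**Figure D5:**
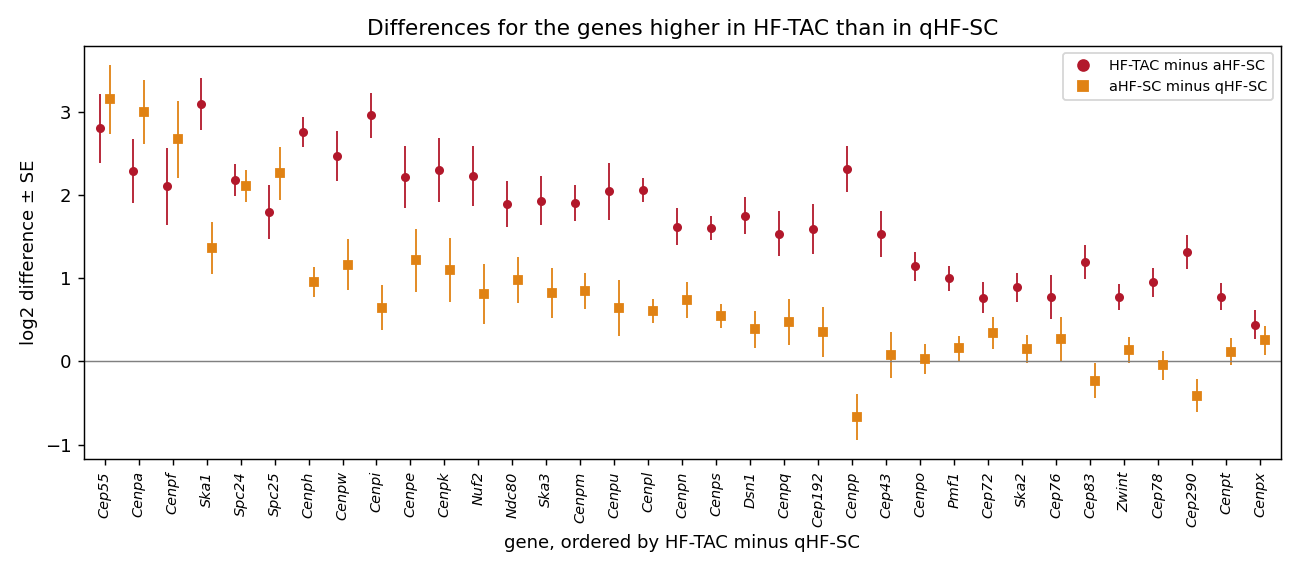
Log2 differences with their SE for the 35 genes that rose in HF-TAC against qHF-SC, in order of that difference; circles are HF-TAC minus aHF-SC and squares are aHF-SC minus qHF-SC. Both symbols lie at similar heights for Cep55, Cenpa, Cenpf, Spc24 and Spc25, and the square lies below the circle for most others.

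Transcripts of other proteins that work on the kinetochore in mitosis were also mostly higher in HF-TAC. Of 25 measured genes of the spindle checkpoint, the chromosomal passenger complex and other kinetochore partners, 23 rose and none fell in HF-TAC against qHF-SC, with a median of 8.32-fold. Against aHF-SC 22 rose, with a median of 4.48-fold. In aHF-SC against qHF-SC 7 rose and 18 did not pass, with a median of 2.10-fold. Of all genes, 13.4%, 8.97% and 3.07% rose in these comparisons. Bub1, the checkpoint kinase, had 416 and 570 in HF-TAC, 96.0 and 31.4 in aHF-SC and 10.7 and 7.46 in qHF-SC. The groups were apart, with qHF-SC at background, by 54.4-fold between HF-TAC and qHF-SC (5.77 ± 0.48 SE on the log2 scale, limma adjusted p = 0.000254). Birc5, the survivin subunit of the passenger complex, was 54.1-fold higher in HF-TAC than in qHF-SC (limma adjusted p = 0.000114) and 9.45-fold higher in aHF-SC than in qHF-SC (adjusted p = 0.00773). Aurkb, the kinase of that complex and also at background in qHF-SC, was 30.9-fold higher in HF-TAC than in qHF-SC (limma adjusted p = 8.32e-05).

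Of 38 other genes of centriole duplication and of the material around centrioles, 16 rose and 1 fell in HF-TAC against qHF-SC, 14 rose and none fell in HF-TAC against aHF-SC, and 4 rose and none fell in aHF-SC against qHF-SC. The median was 1.60-fold, 1.52-fold and 1.04-fold in these comparisons. Of all genes, 13.4%, 8.97% and 3.07% rose in them, and 12.9%, 8.57% and 3.21% fell. The mitotic kinases led. Nek2, which parts the centrosomes, had 544 and 767 in HF-TAC, 126 and 70.9 in aHF-SC and 21.9 and 26.6 in qHF-SC, and was 26.8-fold higher in HF-TAC than in qHF-SC (limma adjusted p = 9.29e-05). Aurka, which matures them, was 21.1-fold higher (limma adjusted p = 6.47e-05), and Stil, needed to build a new centriole and at background in qHF-SC, was 9.21-fold higher (adjusted p = 0.00119). Nin, which anchors microtubules at the mother centriole, was the gene that fell (-0.74 ± 0.19 SE on the log2 scale, limma adjusted p = 0.0259). Haus7, of the augmin complex, had 266 and 278 in HF-TAC, 273 and 269 in aHF-SC and 140 and 136 in qHF-SC. The younger groups overlapped, and it was 1.96-fold higher in aHF-SC than in qHF-SC (limma adjusted p = 0.0132).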

How the data were processed

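RNA was measured in 3 sorted cell groups with 2 arrays each. The authors deposited 1 linear intensity per probe set and array (3.83 to 31188). RMA is named per the submitters' processing notes, with no version or role, and how its log values became linear is not stated there. RMA-type summaries compress large folds and dim signals. Array medians lay between 22.8 and 24.0, replicate arrays correlated across genes at r of 0.989 to 0.992, and the 2 arrays per group limit the precision. The deposited intensities were put on the log2 scale. Of 45101 probe sets, 34945 carried 1 gene symbol in the platform annotation, 932 several and 9160 none, besides 64 control probe sets; the brightest of each gene gave 18193 genes. The Entrez identifiers of all 65 members were found in the RefSeq table, with 0 symbols changed, and 38 members had 2 or more probe sets. No columns were left unmapped.

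Group means over all 6 arrays were fitted with limma 3.58.1 in R 4.3.3 (lmFit, contrasts.fit, eBayes; 3 residual and 4.25 prior degrees of freedom), two-sided, adjusted by Benjamini-Hochberg over all genes, and the method was tested on simulated data. Folds are ratios of geometric means. A group mean at or below 18.6, the 90th percentile of 38 olfactory receptor genes on the array where it was highest, was called background; 2, 5 and 11 members were there in HF-TAC, aHF-SC and qHF-SC. The members, lists and tests were chosen with earlier results of these data known. Any member could be named; array values were given for up to 8 members with the largest differences past the threshold and no overlap per comparison, the smallest p and the brightest member of each role, and members in the rarer direction. Those of Cenpe, Cenpt, Ndc80, Nuf2, Mis12, Nsl1, Cep43, Cep192, Cep290, Dcn and Haus7 were added after their values were seen. Of other genes of the pathway, up to 3 per list and comparison were named. The alternatives were another normalisation or scaling, the mean of probe sets, no cross-hybridising probe sets, no dim genes, array weights, a replicate block, fits of 2 groups and leaving out each array; the brightest probe set among those above background was added after the data were seen.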

Additional observations from a re-analysis of the deposited data

How the results depend on the processing

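No call of a member turned its direction under any alternative. Of 38 member calls in HF-TAC against qHF-SC, 31 held with every array left out in turn and 33 under every other alternative; of 36 against aHF-SC, 23 and 30 held, and of 7 in aHF-SC against qHF-SC, 1 and 5. With 1 array left out the member counts lay between 32 and 38, 25 and 33, and 2 and 10 in these comparisons, the lowest of aHF-SC against qHF-SC without qHF-SC replicate 2 (2) and replicate 1 (4). The counts over all genes lay between 2893 and 4588, 1643 and 2786, and 124 and 1354, where a lone array is assumed to vary like the other groups. Against 4790, 3191 and 1142 with all arrays, the fewest calls came without qHF-SC replicate 2 (2893), without aHF-SC replicate 2 (1643) and without qHF-SC replicate 2 (124). Uncalled differences near 0 changed sign: with 1 array left out, Cep20 ranged from -0.149 to 0.058 (HF-TAC minus qHF-SC, log2) and from -0.146 to 0.061 (aHF-SC minus qHF-SC), positive without qHF-SC replicate 2, and from -0.039 to 0.034 (HF-TAC minus aHF-SC), positive without aHF-SC replicate 2 and HF-TAC replicate 2 (0.014). Averaged over its probe sets, Zwint was -0.024 (aHF-SC minus qHF-SC). Nsl1, uncalled but farther from 0, also changed sign when its probe sets were averaged, and then passed. Its log2 difference went from -0.358 to 0.952 for HF-TAC minus qHF-SC and from -0.280 to 0.786 for HF-TAC minus aHF-SC. The cause of these changes was not tested. With quantile normalisation or scaling the median of all genes lay between -0.033 and 0.0082 on the log2 scale. The differences between replicates 1 and 2 were little correlated over genes (r = 0.084, -0.127 and 0.061 for HF-TAC with aHF-SC, HF-TAC with qHF-SC and aHF-SC with qHF-SC). This cannot tell whether arrays with the same number came from the same animals, which the labels leave unsaid. Fitted with a replicate block, 36, 33 and 6 members and 4530, 2836 and 889 genes passed.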
